A study of Mus musculus with 38 samples.

Results

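Fkbp5, Tsc22d3, Klf9, Sgk1, Pdk4 and Dusp1 are genes that the glucocorticoid receptor and the androgen receptor are both known to switch on. The 6 genes were chosen by name, with earlier results of these data known, so their counts beside shares of all genes are descriptions. Each was represented by the brightest of the array probes annotated to its symbol, so 6 of 14885 tested genes are described. All 6 passed the filter on dim probes, and the probe used was above background on 38 of 38 arrays for each of them. Testis RNA was measured on 38 Illumina bead arrays in 20 groups, and each array held RNA pooled from 2 animals. All treated mice were LuRKO, a mouse line that lacks the receptor through which pituitary luteinizing hormone makes Leydig cells produce testosterone. LuRKO and wild-type littermates were untreated at days 3, 8, 13, 19 and 27 (birth is day 1). Other LuRKO mice received a single intraperitoneal injection at day 19. One series followed 2.5 mg testosterone propionate after 2, 4, 8, 12, 24 and 48 h, and the other compared vehicle, 250 ng, 2.5 µg and 25 µg at 24 h. Each group had 2 arrays (replicates A and B) except 2.5 mg at 24 h and day 27 LuRKO, which had 1. Vehicle arrays were taken at 24 h alone, so the effect of injection and that of testosterone cannot be told apart at 2, 4, 8, 12 and 48 h, and the 48 h mice were also older than every control. The genes for the luteinizing hormone receptor and the androgen receptor were not analysed here.

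Both receptors are ligand-activated transcription factors that wait in the cytoplasm in a complex with heat shock proteins and enter the nucleus with their hormone. They bind the same palindromic DNA element, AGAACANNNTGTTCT, as pairs, which is why their target genes overlap. In the testis the androgen receptor is best known from Sertoli, peritubular myoid and Leydig cells, and germ cells respond to testosterone through those cells. Of the 6 genes, Fkbp5 encodes a cochaperone of the heat shock protein complex, which lowers hormone binding by the glucocorticoid receptor but favours it in the androgen receptor, Tsc22d3 (also called Gilz) a leucine zipper protein that dampens inflammatory signalling, and Klf9 a Kruppel-like transcription factor. Sgk1 and Pdk4 encode kinases, the first acting on ion transport and cell survival and the second holding back pyruvate dehydrogenase so that cells burn fat in place of glucose. Dusp1 encodes a phosphatase that switches off MAP kinases, and growth factors and stress induce it as well as steroids.

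On GRCm38.p6 Fkbp5 lies at 17:28398753-28486149, Tsc22d3 at X:140539528-140600522, Klf9 at 19:23141226-23168129, Sgk1 at 10:21882184-21999903, Pdk4 at 6:5483351-5496278 and Dusp1 at 17:26505591-26508472. RefSeq promoter windows of the same build, running from 250 bases before to 50 bases after each annotated start, were searched on both strands. The 6 genes have 13 such windows, 6 of them for Sgk1, 3 for Tsc22d3 and 1 for each of the others. Of these 13, 1 held the complete element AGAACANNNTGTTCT, compared with 0.00913% of all 32851 windows. That window belongs to Sgk1, at chr10:21993640-21993939 on the plus strand, and the element spans chr10:21993701-21993715. The hexamer TGTTCT, which is one arm of the element and overlaps it, was in 4 of the 13 windows (3 of Sgk1 and 1 of Tsc22d3), compared with 19% of all windows. The cyclic AMP response element TGACGTCA, the site for CREB, was in the Dusp1 window alone among the 13, and in 1.79% of all windows. The 3 windows below are shown because each holds 1 kind of match, with matches in capitals: the complete element and a separate hexamer in Sgk1, the hexamer in Tsc22d3 at chrX:140600473-140600772 (minus strand) and TGACGTCA in Dusp1 at chr17:26508423-26508722 (minus strand).
Sgk1: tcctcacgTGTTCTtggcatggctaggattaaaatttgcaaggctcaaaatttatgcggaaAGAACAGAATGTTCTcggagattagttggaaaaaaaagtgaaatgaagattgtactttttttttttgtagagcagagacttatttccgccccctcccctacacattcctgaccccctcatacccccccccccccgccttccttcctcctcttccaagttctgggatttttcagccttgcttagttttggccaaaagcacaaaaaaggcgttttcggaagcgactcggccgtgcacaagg
Tsc22d3: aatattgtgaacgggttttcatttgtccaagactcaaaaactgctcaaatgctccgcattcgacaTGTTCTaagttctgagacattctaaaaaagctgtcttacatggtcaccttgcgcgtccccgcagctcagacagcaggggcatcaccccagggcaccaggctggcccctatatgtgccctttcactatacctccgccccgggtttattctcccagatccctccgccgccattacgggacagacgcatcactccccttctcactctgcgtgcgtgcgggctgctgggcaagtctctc
Dusp1: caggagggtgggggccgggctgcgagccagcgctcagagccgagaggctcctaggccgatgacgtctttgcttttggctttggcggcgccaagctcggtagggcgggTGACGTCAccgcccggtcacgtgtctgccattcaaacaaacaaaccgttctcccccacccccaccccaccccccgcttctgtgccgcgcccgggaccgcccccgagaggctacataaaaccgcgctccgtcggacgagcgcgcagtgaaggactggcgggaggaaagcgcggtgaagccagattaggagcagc
A match describes these letters and is not a measured binding site, and windows without a match say nothing of elements elsewhere in a gene.

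Some arrays stood apart from their labels. Vehicle replicate A had a Cyp17a1 level of 10.91 (log2 intensity) and an Insl3 level of 12.34, compared with 7.43 and 9.23 on vehicle replicate B. Wild-type day 19 arrays had 10.78 to 11.35 for Cyp17a1, a steroidogenic enzyme of Leydig cells, and 12.70 to 13.01 for Insl3, a Leydig cell hormone. The androgen-responsive Sertoli cell gene Rhox5 was also at 10.92 on vehicle replicate A and at 8.15 on replicate B. The age label of replicate A gives 34 h after day 19, while its time label gives 24 h. Wild-type day 3 replicate A held the meiotic gene Ldhc at 10.61 (7.70 on replicate B), and LuRKO day 13 replicate B held Rhox5 at 10.61 (9.06 on replicate A). Both untreated day 19 LuRKO arrays had the spermatid gene Prm1 at 7.72 to 8.01, above vehicle at 6.24 to 6.34. Vehicle A, wild-type day 3 A and LuRKO day 13 B are called the 3 doubted arrays below. With them left out, the 36 differences of the 6 genes from the 8 controls defined below moved by at most 0.056 (log2), 0 of 12 calls were lost and 3 were gained. The same step moved differences from vehicle by up to 0.22 and LuRKO differences from wild type by up to 0.19, and the values without these arrays are given beside the calls concerned. In every group at least 6 of 7 tested Sertoli cell markers were above background on all arrays, and in treated LuRKO groups 3 to 5 of 7 Leydig cell markers were, with Hsd3b1 above background on none of their arrays.

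Within 4 h of 2.5 mg testosterone, 5 of the 6 genes were higher than in the controls, and Klf9 was not. The 4 h arrays were set against 8 control arrays, with the mean of the 4 group means as the control level. These are the untreated, vehicle, 250 ng and 2.5 µg arrays of LuRKO at day 19. By their titles none of them belongs to the 2.5 mg series, so series and treatment cannot be told apart. The rises were 1.72-fold for Pdk4, 1.62-fold for Dusp1, 1.48-fold for Sgk1, 1.46-fold for Fkbp5 and 1.46-fold for Tsc22d3. Tests used limma with 1 mean per group across all 38 arrays, and a gene was called when its p-value, adjusted by Benjamini and Hochberg over 14885 genes, was under 0.05. Of all genes tested, 10.5% were called higher in this comparison. Both 4 h arrays lay above all 8 control arrays for the same 5 genes, as they did for 10.4% of all genes. The median difference was 0.56 (log2) over the 6 genes and 0.03 over all genes. The same 5 genes were called at 4 h when the control was untreated LuRKO alone (15.2% of all genes called higher) or vehicle alone (5.12%). Since the testis was measured as bulk tissue, more cells of a type and more RNA per cell cannot be told apart.

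**Figure D1:**
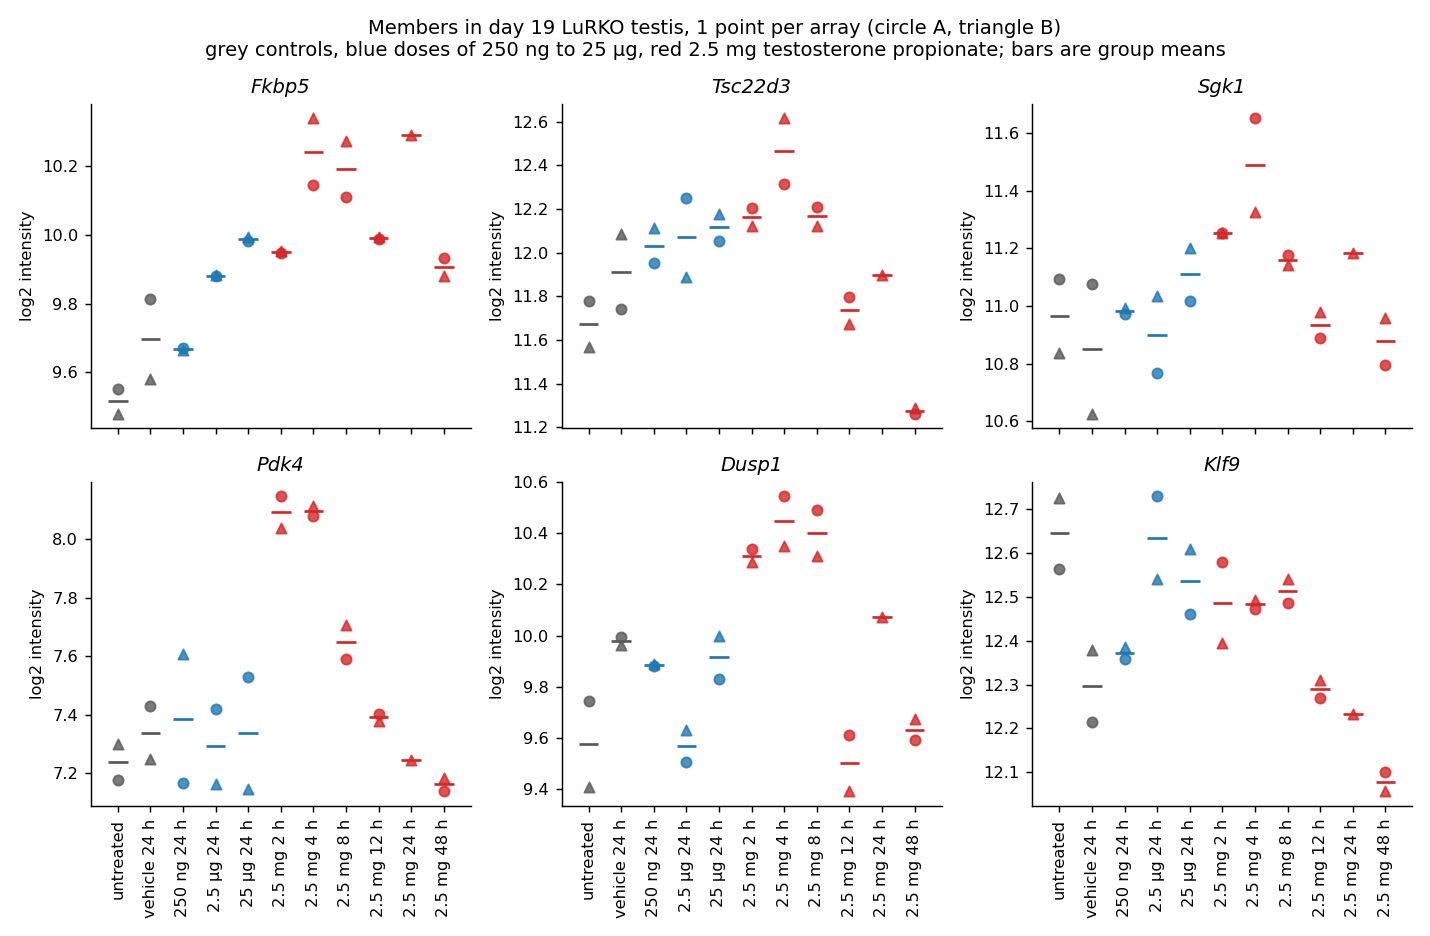
Log2 intensity of the 6 genes on each day 19 LuRKO array, with untreated and vehicle arrays in grey, doses of 250 ng to 25 µg in blue, 2.5 mg in red, and a bar at each group mean. Pdk4 at 2 and 4 h and Dusp1 at 2, 4 and 8 h lie above every grey and blue array, while Klf9 at 2 to 8 h lies within the range of the grey ones.

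Fkbp5 was at 9.55 and 9.48 (log2 intensity, replicates A and B) in untreated LuRKO, 9.81 and 9.58 with vehicle, 9.67 and 9.66 with 250 ng, and 9.88 on both arrays with 2.5 µg. After 2.5 mg it was at 9.95 on both arrays at 2 h, 10.14 and 10.34 at 4 h, 10.11 and 10.27 at 8 h, 9.99 on both arrays at 12 h, 10.29 on the single array at 24 h and 9.93 and 9.88 at 48 h. All arrays from 2 to 24 h lay above all 8 control arrays, and the 48 h arrays met the upper edge of the control range. Against the 8 controls Fkbp5 rose by 0.55 ± 0.10 (log2 difference ± SE, limma adjusted p = 0.00021) at 4 h, 0.50 ± 0.10 (adjusted p = 0.0012) at 8 h and 0.60 ± 0.13 (adjusted p = 0.0055) at 24 h. At 2 h the difference was 0.26 (adjusted p = 0.097) and at 12 h it was 0.30 (adjusted p = 0.064), which missed the threshold. Against untreated LuRKO alone, Fkbp5 was called higher at all 6 times, by 0.39 to 0.77. Among the 6 genes it alone was still called higher at 24 h, in a comparison that rests on 1 treated array. Without 8 h replicate B the 8 h difference was 0.42 (adjusted p = 0.071), and with the 3 doubted arrays left out the 12 h difference was 0.33 (adjusted p = 0.042).

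Tsc22d3 had 11.78 and 11.57 in untreated LuRKO, 11.74 and 12.08 with vehicle, 11.95 and 12.11 with 250 ng, and 12.25 and 11.89 with 2.5 µg. The 2.5 mg arrays had 12.20 and 12.12 at 2 h, 12.32 and 12.62 at 4 h, 12.21 and 12.12 at 8 h, 11.80 and 11.67 at 12 h, 11.90 at 24 h and 11.26 and 11.29 at 48 h. The gene went above all 8 controls at 4 h and below all of them at 48 h, with overlap at the other times. It rose by 0.54 ± 0.12 at 4 h (limma adjusted p = 0.0019) and fell by 0.65 ± 0.12 at 48 h (adjusted p = 0.00017). The 2 h and 8 h differences were both 0.24 (adjusted p = 0.23 and 0.21). Without 4 h replicate B the 4 h difference was 0.39 (adjusted p = 0.18). Of 2 dimmer Tsc22d3 probes, ILMN_2648224 differed by 0.53 at 4 h (adjusted p = 0.065), and ILMN_2701664, above background on 9 of 38 arrays, by 0.21 (adjusted p = 0.22). The second of these was above background on both 4 h arrays and on 2 of the 8 control arrays. At 48 h ILMN_2648224, above background on 38 of 38 arrays, was lower by 0.56 (adjusted p = 0.035). ILMN_2701664 was not above background on either 48 h array, so it gives no measure of that fall.

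Klf9 was at 12.56 and 12.73 in untreated LuRKO, 12.22 and 12.38 with vehicle, 12.36 and 12.39 with 250 ng, and 12.73 and 12.54 with 2.5 µg. After 2.5 mg it was at 12.58 and 12.39 at 2 h, 12.47 and 12.49 at 4 h, 12.49 and 12.54 at 8 h, 12.27 and 12.31 at 12 h, 12.23 at 24 h and 12.10 and 12.06 at 48 h. From 2 to 24 h its arrays lay within the range of the 8 controls, and at 48 h both lay below it. Set against vehicle alone, its arrays at 2, 4 and 8 h lay above both vehicle arrays. The same held for 23.5%, 27.2% and 25.5% of all genes at those times. The 4 h difference from the 8 controls had a 95% interval of -0.19 to 0.18 (log2), and the 8 h difference one of -0.16 to 0.21. At 48 h Klf9 fell by 0.41 ± 0.09 (limma adjusted p = 0.001), and against vehicle alone the difference was -0.22 (adjusted p = 0.19).

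Sgk1 was at 11.09 and 10.84 in untreated LuRKO, 11.08 and 10.63 with vehicle, 10.97 and 10.99 with 250 ng, and 10.77 and 11.03 with 2.5 µg. The 2.5 mg arrays had 11.25 on both at 2 h, 11.65 and 11.33 at 4 h, 11.18 and 11.14 at 8 h, 10.89 and 10.98 at 12 h, 11.18 at 24 h and 10.80 and 10.96 at 48 h. All arrays at 2, 4, 8 and 24 h lay above the 8 controls, and those at 12 and 48 h overlapped them. Sgk1 rose by 0.56 ± 0.11 (limma adjusted p = 0.00039) at 4 h, while the 2 h difference of 0.33 had an adjusted p of 0.051. Without the 3 doubted arrays the 2 h difference was 0.38 (adjusted p = 0.016). Of the 6 Sgk1 promoter windows, 1 holds the complete receptor element printed above, and its part in the rise was not tested.

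Pdk4, the dimmest of the 6 probes, was at 7.18 and 7.30 in untreated LuRKO, 7.43 and 7.25 with vehicle, 7.17 and 7.61 with 250 ng, and 7.42 and 7.16 with 2.5 µg. After 2.5 mg it was at 8.15 and 8.04 at 2 h, 8.08 and 8.11 at 4 h, 7.59 and 7.71 at 8 h, 7.40 and 7.38 at 12 h, 7.24 at 24 h and 7.14 and 7.19 at 48 h. The 2 h and 4 h arrays lay above every control array, and from 8 h on the groups overlapped. Pdk4 rose by 0.78 ± 0.12 at 2 h (limma adjusted p = 7.5e-05) and 0.78 ± 0.12 at 4 h (adjusted p = 2.7e-05), and the 8 h difference was 0.33 (adjusted p = 0.064), or 0.36 (adjusted p = 0.045) with the 3 doubted arrays left out. The background threshold was 6.66 on this scale, and the constant added in background correction shrinks differences of dim probes. With a smaller constant the 4 h difference was 0.94 (adjusted p = 9.2e-05). Pdk4 was the only one of the 6 genes called higher than vehicle at 2 h, by 0.75 ± 0.15 (adjusted p = 0.0063), in a comparison that called 1.25% of all genes higher. Without the 3 doubted arrays, against the 1 vehicle array that remained, that difference was 0.84 (adjusted p = 0.025), and Sgk1 was then called at 2 h as well (0.63, adjusted p = 0.045).

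Dusp1 was at 9.75 and 9.41 in untreated LuRKO, 9.99 and 9.96 with vehicle, 9.88 and 9.89 with 250 ng, and 9.51 and 9.63 with 2.5 µg. After 2.5 mg it was at 10.34 and 10.29 at 2 h, 10.54 and 10.35 at 4 h, 10.49 and 10.31 at 8 h, 9.61 and 9.39 at 12 h, 10.07 at 24 h and 9.59 and 9.67 at 48 h. All 6 arrays of 2, 4 and 8 h lay above the 8 controls, and those at 12 and 48 h lay within or below the control range. Dusp1 rose by 0.56 ± 0.11 at 2 h (limma adjusted p = 0.001), 0.69 ± 0.11 at 4 h (adjusted p = 3.8e-05) and 0.65 ± 0.11 at 8 h (adjusted p = 0.0002). Between 8 h and 12 h it fell by 0.90 ± 0.13 (adjusted p = 0.00076), in a comparison that called 0.289% of all genes lower. That fall and the fall of Tsc22d3 by 0.62 ± 0.19 from 24 h to 48 h (adjusted p = 0.023, 7.59% of all genes lower) were the only 2 calls among 30 tests between neighbouring times. The other steps called 0.0336% (2 to 4 h), 0.0537% (4 to 8 h) and 2.88% (12 to 24 h) of all genes in either direction. The Tsc22d3 fall had an adjusted p of 0.074 to 0.078 without either 48 h array. The mean of the Tsc22d3 probes differed by -0.26 (adjusted p = 0.34), a mean that includes ILMN_2701664, which was not above background at either time. It also includes ILMN_2648224, above background at both times, which was at 7.96 on the 24 h array and 7.71 to 7.73 at 48 h. The size of the fall thus differs between the 2 probes above background.

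The times of the rises differed in which genes were called. Against the 8 controls, 2 of the 6 genes were called higher at 2 h (Pdk4 and Dusp1, 3.98% of all genes), 5 at 4 h, 2 at 8 h (Fkbp5 and Dusp1, 5.27%), 0 at 12 h (2.81%), 1 at 24 h (Fkbp5, 3.35%) and 0 at 48 h (14.7%). At 12 h, 0 of the 6 genes had an adjusted p under 0.05 in limma. Fkbp5 was higher than the controls with an unadjusted p of 0.0046. Dusp1 and Klf9 were lower, with unadjusted p-values of 0.026 and 0.038. At 48 h 2 of the 6, Tsc22d3 and Klf9, were called lower, beside 16% of all genes. Among the 2.5 mg groups, means were highest at 4 h for Tsc22d3, Sgk1, Pdk4 and Dusp1, at 8 h for Klf9 and at 24 h for Fkbp5. No step between 2 and 4 h or between 4 and 8 h was called for any of the 6, so the order of times within 8 h is a description.

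**Figure D2:**
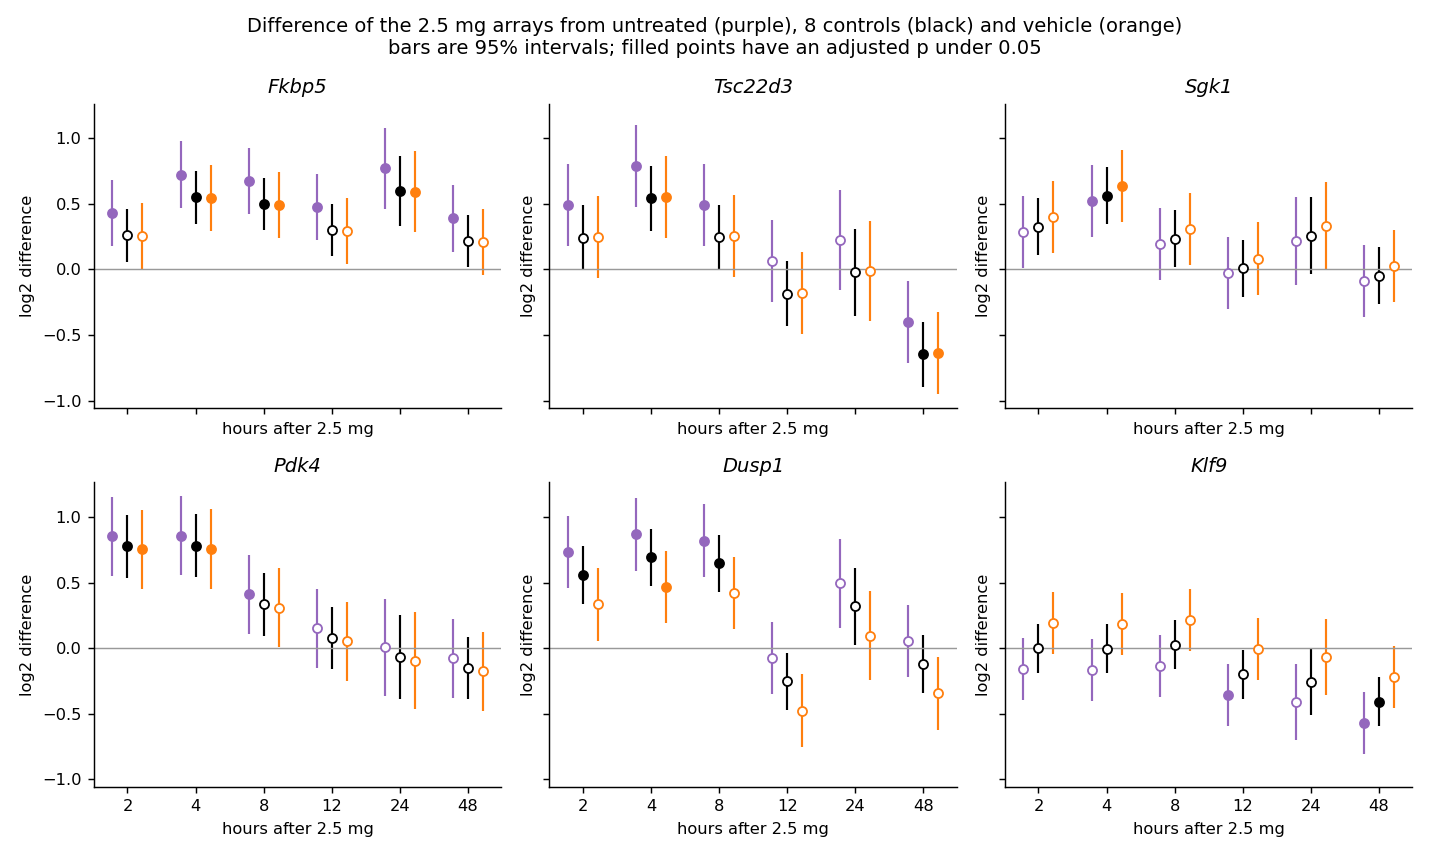
Log2 difference of each 2.5 mg group from untreated LuRKO (purple), the 8 controls (black) and vehicle (orange), with 95% intervals and filled points for an adjusted p under 0.05. At 4 h the points of 5 genes are filled for all 3 controls, and those of Klf9 are open.

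The choice of control moved the counts. Against untreated LuRKO alone, the 6 genes gave 4 calls higher at 2 h (11.3% of all genes higher), 5 at 4 h, 4 at 8 h (11.4%), 1 at 12 h (7.93%), 1 at 24 h (5.3%) and 1 at 48 h (16.5%), and Klf9 was called lower at 12 h (8.93% of all genes lower) and at 48 h, together with Tsc22d3 (16.2% lower). Against vehicle alone there were 1, 5, 1, 0, 1 and 0 calls higher at those times, and Tsc22d3 was called lower at 48 h (10.6% of all genes lower). The backgrounds against vehicle were 2.29% at 8 h, 1.37% at 12 h, 2.67% at 24 h and 10.9% at 48 h. With the 3 doubted arrays left out, the 5 genes stayed called at 4 h against the 8 controls, with differences of 0.50 to 0.80. Klf9 at 24 h against untreated LuRKO, -0.41 in both fits, then had an adjusted p of 0.035 in place of 0.059. Against the lone vehicle array that remained, Tsc22d3 (0.38, adjusted p = 0.22) and Dusp1 (0.48, adjusted p = 0.11) missed the threshold at 4 h. Without vehicle replicate B, the calls against vehicle dropped from 9 to 2 of 36, and without untreated replicate B those against untreated dropped from 19 to 11 of 36. With the 6 injected controls in place of the 8, the 5 genes had differences of 0.46 to 0.76 at 4 h and all were called. These 3 comparisons share their treated arrays, and the 8 controls contain the other control groups.

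Vehicle at 24 h was also set against untreated LuRKO, a comparison that joins the injection with a later age, with vehicle replicate A and with the Prm1 level of the untreated arrays, and these cannot be told apart. Dusp1 was higher with vehicle by 0.40 ± 0.13 (limma adjusted p = 0.045, 6.66% of all genes higher) and Klf9 lower by 0.35 ± 0.12 (adjusted p = 0.04, 7.65% lower). Both vehicle arrays lay above both untreated ones for Dusp1 and for Fkbp5, which was not called, as they did for 28.3% of all genes. They lay below for Klf9, as for 22.8% of all genes. Leaving out untreated replicate B, vehicle A or vehicle B left 0 of the 2 calls, and leaving out untreated replicate A left 1. Without vehicle replicate A the differences were 0.39 for Dusp1 (adjusted p = 0.16) and -0.27 for Klf9 (adjusted p = 0.25). The Dusp1 rise at 4 h over vehicle, 0.47 ± 0.13 (adjusted p = 0.026), was measured against a vehicle level that was itself above untreated, in samples of another time.

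Doses from 250 ng to 25 µg gave no call for these genes at 24 h. In 18 limma tests against vehicle 0 had an adjusted p under 0.05, where 0.0605%, 0.0537% and 0.47% of all genes were called in either direction at 250 ng, 2.5 µg and 25 µg. Unadjusted limma p-values were under 0.05 for Fkbp5 at 25 µg (0.026) and for Klf9 at 2.5 µg (0.0065) and 25 µg (0.047), all higher than vehicle. Dusp1 at 2.5 µg was lower than vehicle, with an unadjusted p of 0.0052. For Fkbp5 the 25 µg arrays were at 9.98 and 9.99, and the differences from vehicle were -0.03, 0.18 and 0.29 (log2) from the lowest to the highest of these doses, with 0.59 ± 0.15 at 2.5 mg (adjusted p = 0.021). Without the 3 doubted arrays these were 0.086, 0.30, 0.41 and 0.71 (adjusted p = 0.022 for 2.5 mg), and again 0 of the 18 tests at the lower doses passed, while 6 of the 18 differences changed sign. The 25 µg arrays of the other genes were at 12.06 and 12.18 for Tsc22d3, 12.46 and 12.61 for Klf9, 11.02 and 11.20 for Sgk1, 7.53 and 7.15 for Pdk4 and 9.83 and 9.997 for Dusp1. For Pdk4 the 95% interval of the difference between 25 µg and vehicle was -0.30 to 0.30. At 24 h after 2.5 mg itself, 4 of the 5 genes that had been higher at 4 h were not called against vehicle, on 1 treated array. That array lay above all 8 control arrays for 3 of the 6 genes (Fkbp5, Sgk1 and Dusp1), as it did for 16.6% of all genes. The lower doses were measured at 24 h alone, and their effect at earlier times was not tested.

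Other genes of the same kind were read from a list of 28 further shared targets of both receptors, 26 of which were tested. This list too was chosen with earlier results of these data known. Against the 8 controls 5 were called higher at 2 h (3.98% of all genes), 6 at 4 h (10.5%) and 9 at 8 h (5.27%). At these times 0 of the 26 were lower, beside 4.6%, 10.3% and 4.98% of all genes. With the 3 doubted arrays left out the counts higher were 5, 8 and 9, and the 6 genes named next for 4 h kept their calls. The list's median difference at 4 h was 0.16 (log2), with 0.03 over all genes. The largest rise was in Angptl4, a secreted inhibitor of lipoprotein lipase, by 1.09 (limma adjusted p = 2.9e-06) at 4 h and 1.26 (adjusted p = 8.3e-07) at 8 h. Its arrays lay at 9.91 to 10.11 at 4 h and at 8.53 to 9.50 in the 8 controls, with the highest of these on vehicle. Hif3a, a hypoxia-inducible factor subunit, rose by 0.90 (adjusted p = 2.3e-07), and Fam107a, an actin-associated protein induced by glucocorticoids, by 0.80 (adjusted p = 0.00025). Errfi1, an inhibitor of the epidermal growth factor receptor, the transcriptional repressor Bcl6 and the kinase Map3k6 made up the 6, at 0.66, 0.55 and 0.51. Against untreated LuRKO, vehicle had 5 of the 26 called higher and 0 lower, beside 6.66% and 7.65% of all genes. These were Angptl4 (0.68), Fam107a (0.64), Cdkn1a (0.54), Errfi1 (0.50) and Klf15 (0.50). With the doubted arrays left out, and 1 vehicle array remaining, these calls were lost, at differences of 0.54, 0.56, 0.50, 0.44 and 0.34. The part of the injection in the rises at 2 to 8 h was not tested. The clock gene Per1 differed by 0.10 at 4 h and was not called. Later, 1 of 26 was called higher at 12 h (Angptl4, 0.56, adjusted p = 0.012) beside 2.81% of all genes, and 4 at 24 h beside 3.35%, with 0 lower at either time (3.36% and 2.32% of all genes). At 48 h 6 of 26 were higher and 3 lower, beside 14.7% of all genes higher and 16% lower, and the small GTPase gene Rhob fell by 0.69 (adjusted p = 1.9e-05).

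**Figure D3:**
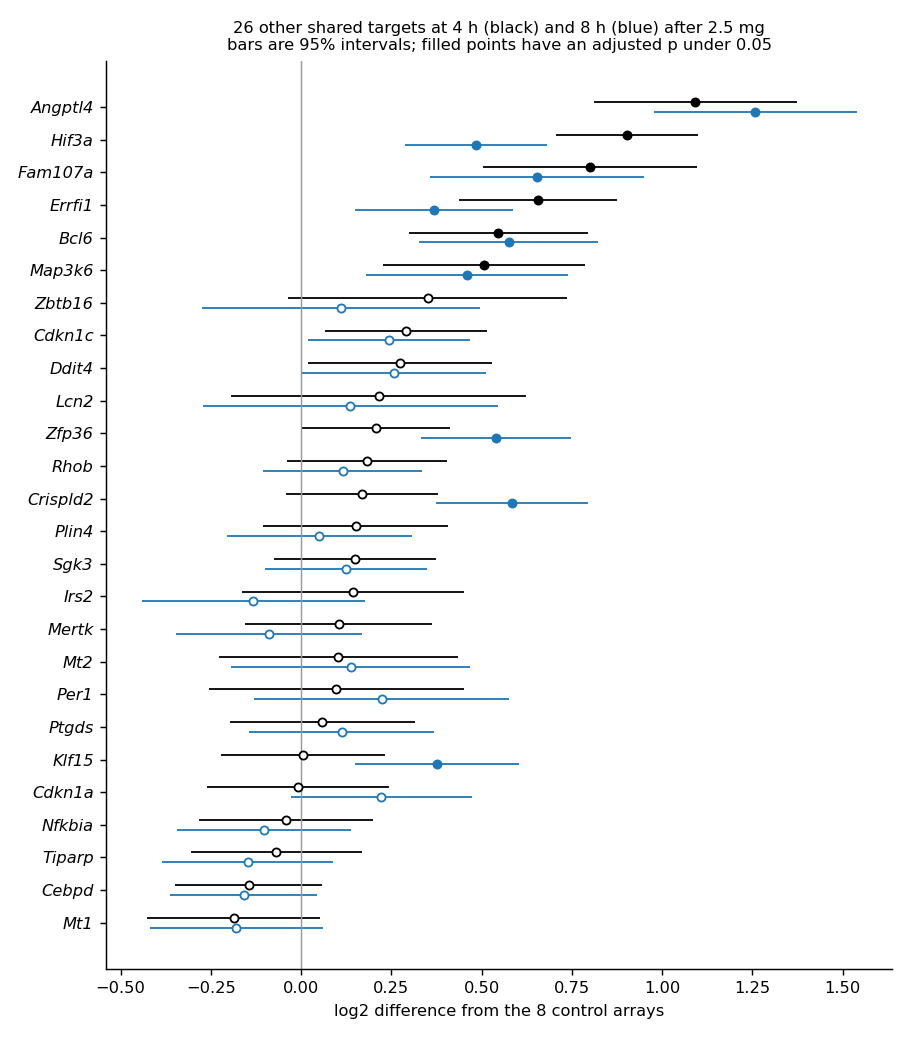
Log2 difference of 26 other shared targets from the 8 control arrays at 4 h (black) and 8 h (blue) after 2.5 mg, with 95% intervals and filled points for an adjusted p under 0.05. Angptl4, Hif3a, Fam107a, Errfi1, Bcl6 and Map3k6 have filled points at both times, and 0 filled points lie below 0.

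The relatives and partners of each gene were counted in the same comparison at 4 h, which called 10.5% of all genes higher and 10.3% lower. Apart from the phosphatases, no list had more than 3 calls in 1 direction, close to what those shares give. Of 12 other MAP kinase phosphatase genes, 5 were called higher and 0 lower (median 0.18), led by Dusp2 (0.40), Dusp3 (0.39) and Dusp8 (0.35). With the 3 doubted arrays left out there were again 5, with Dusp6 in place of Dusp8 (0.33, adjusted p = 0.066). Of 14 genes for SGK partners and the epithelial sodium channel, 2 were higher, Ndrg2 (0.85, limma adjusted p = 9.9e-05), a phosphorylation target of Sgk1, and Rictor (0.22), a subunit of the complex that activates it. Of 13 Kruppel-like factors other than Klf9, Klf5 (0.47) and Klf6 (0.46) were higher and Klf8 lower (-0.42). Of 16 genes of pyruvate dehydrogenase control and fatty acid use, 3 were higher and 2 lower, and the lower ones were Cpt1b (-0.49), a carnitine transferase, and Pdk2 (-0.47), a second pyruvate dehydrogenase kinase. The phosphatase subunit Pdp2, which opposes these kinases, was higher by 0.35. Of 12 relatives of Fkbp5 and Tsc22d3, Fkbp11 was higher (0.33) and Fkbp7 (-0.46) and Fkbpl (-0.36) were lower. Without the doubted arrays the sodium channel subunit gene Scnn1b and the fatty acid oxidation gene Acadm were also called higher, and the other calls of these 4 lists were kept.

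Of 14 receptor chaperones and ligand-handling genes, 0 were higher and 2 lower at 4 h, beside 10.3% of all genes lower. Ptges3, the p23 cochaperone, fell by 0.54 (limma adjusted p = 0.00028) and Hsp90aa1, the inducible heat shock protein of the receptor complex, by 0.46 (adjusted p = 0.00027). Both were also lower with vehicle than in untreated LuRKO, by 0.61 and 0.56 (log2), or 0.51 (adjusted p = 0.026) and 0.59 (adjusted p = 0.0022) without the doubted arrays. Of 14 androgen-responsive Sertoli cell genes, 1 was higher at 4 h (Drd4, 0.98, adjusted p = 0.026), 3 at 8 h and 5 at 12 h (10.5%, 5.27% and 2.81% of all genes), when Rhox5 rose by 2.47 (adjusted p = 0.00012) and 0 of the 6 shared targets was called. At 24 h Rhox5 differed from the 8 controls by 3.42 (adjusted p = 5.9e-05). Drd4 and Rhox5 are 2 of the genes raised on vehicle replicate A, and their control level includes that array. With the 3 doubted arrays left out Drd4 differed by 1.32 at 4 h (adjusted p = 1.1e-06), and Rhox5 by 2.82 (adjusted p = 7.2e-12) at 12 h and 3.77 (adjusted p = 1.2e-11) at 24 h. Rhox5 was then also called at 4 h, by 1.00 (adjusted p = 7.5e-05), where all arrays gave 0.65 (adjusted p = 0.23), and the counts of the 14 genes became 2, 5 and 5 at 4, 8 and 12 h. Of 18 immediate early genes, 3 were higher and 1 lower at 4 h, near the shares of all genes (10.5% and 10.3%), with Fosl2 at 1.10 (adjusted p = 4.8e-07), Gadd45g at 0.97 (adjusted p = 4.7e-06) and Csrnp1 at -0.95 (adjusted p = 0.00084).

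Markers of other cells moved at 4 h as well. All 3 tested erythroid markers were higher, Slc4a1 by 0.77, Alas2 by 0.72 and Hba-a1 by 0.71, and their summed intensity was 10219 to 10770 at 4 h compared with 4289 to 8034 on the 8 controls. With the doubted arrays left out Hba-a1 differed by 0.70 (adjusted p = 0.054), and 2 of the 3 were called. Of 6 endothelial markers Emcn (0.50) and Vwf (0.49) were higher, with a summed intensity of 1617 to 1686 at 4 h and 1203 to 1516 on the controls. Of 7 meiotic and spermatid markers 3 were lower, among them Pgk2 (-0.91), and of 8 macrophage markers C1qb was higher (0.37). Of 6 spermatogonia markers Kit (0.45) and Sall4 (0.62) were higher and Stra8 (-0.80) was lower. The comparison at 4 h called 10.5% of all genes higher and 10.3% lower. Of 7 Sertoli cell markers, Sox9 was higher at 4 h (0.27, adjusted p = 0.037) and at 8 h (0.30, adjusted p = 0.036), and 0 were lower. Their summed intensity was 13900 to 15724 at 4 h and 14950 to 15219 at 8 h, compared with 11040 to 14431 on the 8 controls, so both 8 h arrays lay above every control array. At 2 h, when Pdk4 and Dusp1 were called, 0 of 3 erythroid, 0 of 6 endothelial and 0 of 8 macrophage markers were called in limma, with unadjusted p-values under 0.05 for Emcn (0.016), C1qa (0.0065), Adgre1 (0.02) and C1qb (0.042). The erythroid sum was 6037 on one 2 h array and 12972 on the other, above every control and both 4 h arrays. The Sertoli cell sum was 13020 to 13278 at 2 h. Called lower at 2 h were 1 of 7 Sertoli cell, 1 of 6 spermatogonia and 2 of 7 meiotic and spermatid markers. In these 3 lists 0 were higher, where 4.6% of all genes were called lower and 3.98% higher. Without the doubted arrays 2 of the macrophage markers, C1qa and C1qb, were called higher at 2 h. At 48 h, when Tsc22d3 and Klf9 were lower, 4 of 7 Sertoli cell markers were lower and 0 higher, with a summed intensity of 9540 to 10280 compared with 11040 to 14431 on the controls. At that time 3 of 6 spermatogonia markers were lower and 4 of 7 meiotic and spermatid markers higher, led by Acrv1 (2.91). Of those 7, 1 was lower (Sycp1, -0.49). The comparison at 48 h called 14.7% of all genes higher and 16% lower. Beyond these measurements the part of these cells in the results was not tested.

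By age, the 6 genes followed different courses in untreated testis, and the steps between neighbouring ages were not tested. In wild type Tsc22d3 was at 11.89 to 12.24 at day 3, 12.67 to 12.77 at day 8, 12.68 to 12.72 at day 13, 11.37 to 11.40 at day 19 and 10.26 to 10.65 at day 27. Klf9 in wild type was at 11.09 to 11.41, 12.10 to 12.15, 12.96 to 12.97, 12.10 to 12.15 and 11.80 to 11.88 at the same ages. Sgk1 was at 10.89 to 10.93, 10.81 to 10.87, 11.57 to 11.62, 10.77 to 10.82 and 9.96 to 10.08. These 3 genes were thus highest at day 8 or 13, above both day 3 and day 27, with no overlap between those arrays. The share of all genes with such an order was not counted. Separation by age was common, as wild-type day 27 arrays lay above those of day 3 for 33.6% of all genes and below for 50.9%. In LuRKO Tsc22d3 went from 11.16 to 11.46 at day 3 to 12.62 to 12.90 at day 13 and 11.73 at day 27, and Klf9 from 10.82 to 11.05 to 12.93 to 13.06 and 12.37. Wild-type Fkbp5 was at 10.997 to 11.04 at day 3, 10.73 to 10.83 at day 8, 10.56 to 10.70 at day 13, 9.64 to 9.85 at day 19 and 8.94 to 9.34 at day 27, lower at each age than at the one before, and the group means of Pdk4 also lay in that order. Wild-type Dusp1 was at 10.50 to 10.65 at day 3, 10.61 to 10.64 at day 8, 10.02 to 10.12 at day 13, 9.37 to 9.48 at day 19 and 9.30 to 9.79 at day 27.

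The tests compared the first and the last age. From day 3 to day 27 wild-type levels fell by 1.88 ± 0.12 for Fkbp5 (log2 difference ± SE, limma adjusted p = 2.2e-14), 1.61 ± 0.15 for Tsc22d3, 1.05 ± 0.15 for Pdk4, 1.03 ± 0.13 for Dusp1 and 0.89 ± 0.13 for Sgk1, with adjusted p-values for the last 4 between 9.5e-11 and 7.2e-07. Klf9 rose by 0.59 ± 0.12 (adjusted p = 3.5e-05). The Tsc22d3 fall is that of its brightest probe. On the dimmer probe ILMN_2648224 wild-type arrays overlapped, at 6.72 to 7.79 at day 3 and 7.04 to 7.05 at day 27. In LuRKO that probe was at 7.34 to 7.77 at day 3 and 7.34 on the day 27 array. Without wild-type day 3 replicate A, which the 3 doubted arrays include, the falls were 1.86 for Fkbp5, 1.78 for Tsc22d3, 0.95 for Dusp1, 0.87 for Sgk1 and 0.86 for Pdk4, the rise of Klf9 was 0.43 (adjusted p = 0.004), and all 6 stayed called. Of all genes, 45.1% were called lower and 29.3% higher in this comparison. The summed intensity of 7 Sertoli cell markers went from 19167 to 22810 at day 3 to 4296 to 4423 at day 27 in wild type, and its part in these falls was not tested. In LuRKO, with 1 array at day 27, Fkbp5 fell by 1.45, Dusp1 by 1.06 and Pdk4 by 0.83, while Klf9 rose by 1.43 ± 0.14 (adjusted p = 5.5e-10). There 32.7% of all genes were called lower and 27.8% higher. For Tsc22d3 and Sgk1 in LuRKO the differences were 0.42 (adjusted p = 0.054, or 0.035 when the doubted arrays were left out of the fit) and 0.06 (adjusted p = 0.78).

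LuRKO and wild type separated at day 27. Tsc22d3 was at 10.65 and 10.26 in wild type and 11.73 in LuRKO, a difference of 1.27 ± 0.19 (limma adjusted p = 1.4e-06). Sgk1 was at 9.96 and 10.08 in wild type and 11.07 in LuRKO, higher by 1.04 ± 0.16 (adjusted p = 3.9e-06). Klf9 was at 11.80 and 11.88 in wild type and 12.37 in LuRKO, higher by 0.53 ± 0.14 (adjusted p = 0.0023), and Fkbp5 was at 9.34 and 8.94 in wild type and 9.63 in LuRKO, higher by 0.50 ± 0.15 (adjusted p = 0.006). The comparison called 34.8% of all genes higher and rests on 1 LuRKO array. Fkbp5, Tsc22d3, Klf9, Sgk1 and Pdk4 lay above both wild-type arrays, as did 53.9% of all genes. Meiotic and spermatid markers had a summed intensity of 147914 to 150026 in wild type and 53011 in LuRKO at that age. Sertoli cell markers had 4296 to 4423 in wild type and 10368 in LuRKO, and Leydig cell markers 14101 to 15461 and 2365. Their part in the result was not tested. The Tsc22d3 probe ILMN_2648224 differed by 0.30 (adjusted p = 0.44), so the 2 probes above background at this age differ on its size. The probe ILMN_2701664 was not above background on any array of day 27. Without wild-type replicate B Fkbp5 differed by 0.30 (adjusted p = 0.12). Pdk4 (0.22) and Dusp1 (0.06) were not called.

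At earlier ages few differences were called. At day 19 Klf9 was higher in LuRKO, at 12.56 and 12.73 compared with 12.15 and 12.10, by 0.52 ± 0.12 (limma adjusted p = 0.0017), beside 12.2% of all genes. At day 3 Tsc22d3 was lower in LuRKO, at 11.16 and 11.46 compared with 11.89 and 12.24, by 0.76 ± 0.15 (adjusted p = 0.0012), beside 5.42% of all genes. The probe ILMN_2648224 of Tsc22d3 differed by 0.30 in the other direction (adjusted p = 0.56), and without LuRKO day 3 replicate A the difference was -0.61 (adjusted p = 0.054). With the 3 doubted arrays left out, which removes wild-type day 3 A, it was -0.93 (adjusted p = 0.00078), and Klf9 was then called lower in LuRKO as well, by 0.47 (adjusted p = 0.021), where all arrays gave -0.31 (adjusted p = 0.091). At days 8 and 13, 0 of the 6 genes were called by limma, where 0.047% and 1.77% of all genes were called in either direction, and the only unadjusted p-values under 0.05 at these ages were, at day 13, 0.0016 for Sgk1 (-0.47) and 0.0088 for Fkbp5 (-0.35). Averaged over the 5 ages 0 of the 6 were called, beside 46.1% of all genes in either direction. Unadjusted limma p-values were 0.026 for Klf9 and 0.043 for Sgk1, both higher in LuRKO.

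**Figure D4:**
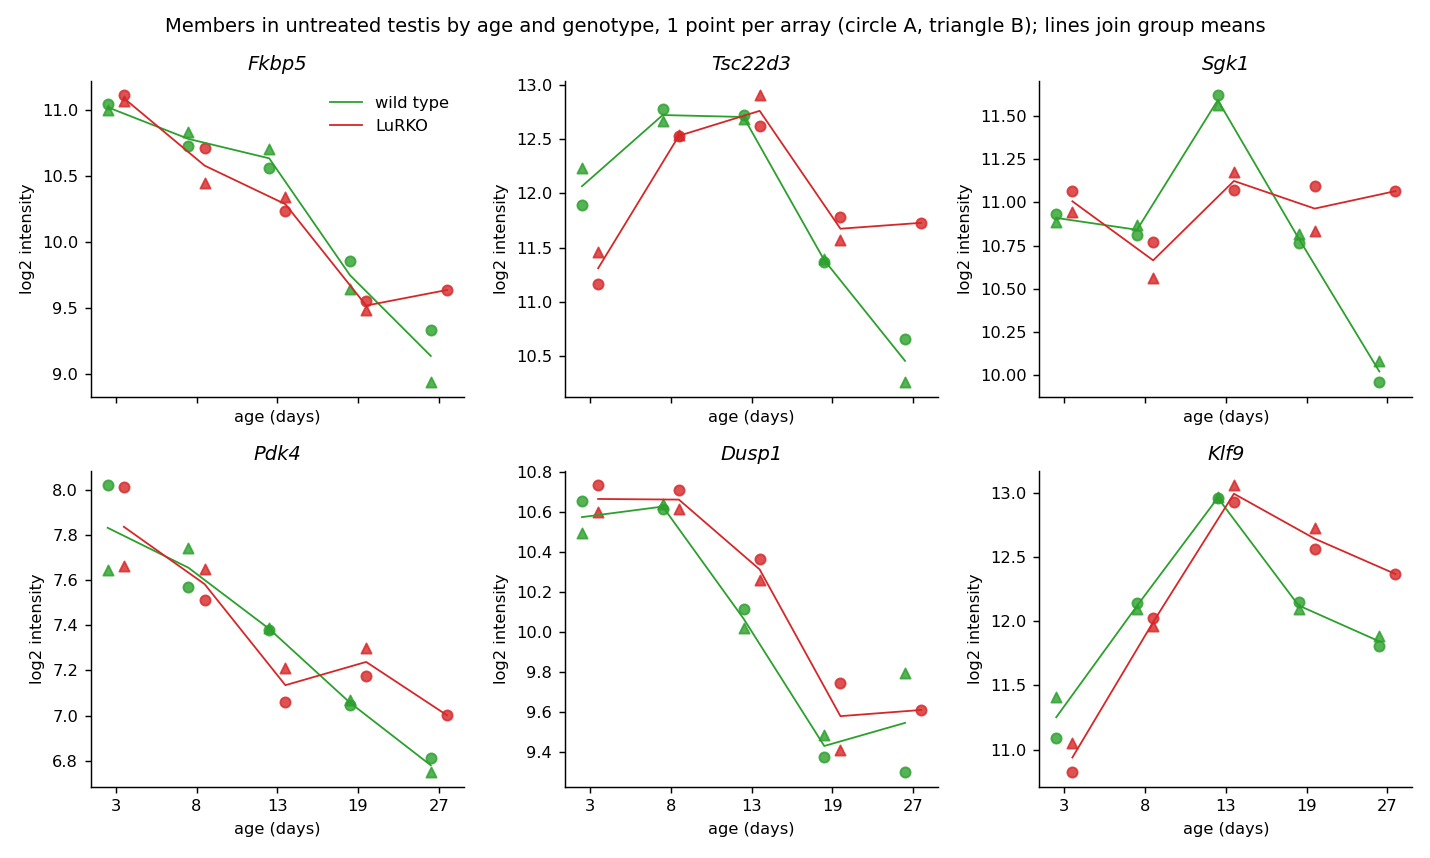
Log2 intensity of the 6 genes in untreated wild-type (green) and LuRKO (red) testis at days 3, 8, 13, 19 and 27, 1 point per array, with lines through group means. Tsc22d3, Sgk1 and Klf9 lie higher in LuRKO than in wild type at day 27, while Dusp1 overlaps there.

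Over all 20 groups the highest and lowest means differed from gene to gene. Fkbp5 was highest in LuRKO at day 3 (11.09) and lowest in wild type at day 27 (9.14), and 11 of 19 pairs of neighbours in the order of group means had arrays that did not overlap. Tsc22d3 ran from 12.76 in LuRKO at day 13 to 10.46 in wild type at day 27, and Klf9 from 13.00 in LuRKO at day 13 to 10.94 in LuRKO at day 3. Sgk1 was highest in wild type at day 13 (11.59), with 11.49 at 4 h after 2.5 mg, and lowest in wild type at day 27 (10.02). Pdk4 was the only one of the 6 whose highest mean came after testosterone, at 8.09 at 4 h, with 7.84 in LuRKO at day 3. Dusp1 was highest in LuRKO at day 3 (10.66), above its 4 h mean of 10.45, and lowest in wild type at day 19 (9.43). For Tsc22d3, Klf9, Sgk1, Pdk4 and Dusp1, 5, 8, 4, 4 and 3 of the 19 neighbouring pairs did not overlap, so most steps in their order were within the spread between arrays.

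Likeness to each gene was measured as Pearson's r of group means over the 11 day 19 LuRKO groups, among genes spanning at least 1 (log2) across them, and is given as a description, since the points share the mice's age and the arrays' normalization. Fkbp5 was nearest to Ms4a6d (0.94), Cdr2l (0.93) and Stc2 (0.91), and Tsc22d3 to Mlxipl (0.94), Gm15107 (0.93) and Cryl1 (0.93). Pdk4 was nearest to Hif3a (0.93), Ndrg2 (0.92) and Fzd3 (0.92), of which the first is one of the other shared targets. Sgk1 was nearest to Pcyox1 (0.87), H2ac12 (0.87) and Nrep (0.86), Dusp1 to Shfl (0.86), Akr1cl (0.85) and Ndrg2 (0.85), and Klf9 to Hmgn2 (0.87), Ppm1l (0.87) and Prelp (0.85). Among the 6 genes themselves, r over these groups was 0.82 for Sgk1 with Dusp1, 0.81 for Pdk4 with Sgk1 and 0.78 for Pdk4 with Dusp1. Klf9 with Fkbp5 had -0.18 and with Dusp1 0.11. With vehicle replicate A left out the 3 largest became 0.70, 0.77 and 0.77, and r fell to 0.87 for Tsc22d3 with Mlxipl, 0.79 for Sgk1 with H2ac12 and 0.69 for Sgk1 with Nrep, while each of the other 15 stayed at or above 0.83.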

How the data were processed

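Testis RNA was hybridised as biotin-labelled cRNA to single-colour Illumina arrays, per the labels' protocols, and read with BeadStudio, per the submitters' processing notes, which give no version. The values used are the deposited linear probe intensities after quantile normalization by the authors, with array medians of 108.1 to 108.3; the number of arrays limits precision. A non-normalized table was left out, as the names of its 76 per-array columns could not be tied to a label. Intensities were background-corrected with normexp (offset 50) and log2-transformed in limma 3.58.1 (R 4.3.3). Probes above 105 (6.66 on the log2 scale; background mode 77.0) on at least 2 arrays were kept, 30925 of 45281, and 25165 of these had 1 symbol, updated from RefSeq tables of GRCm38.p6. Each gene was read from its brightest kept probe, giving 14885 genes. Of all probes 34885 had 1 symbol, 18 several and 10378 none listed. Groups came from the labels, and 1 mean per group was fitted with lmFit and eBayes (18 residual degrees of freedom and 10.2 prior ones), so a group of 1 array borrows the spread of the others. Adjustment was by Benjamini and Hochberg over all 14885 genes. The scripts were tested on simulated data. No source says that pools came from separate litters, so p-values measure the spread between arrays.

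The 6 genes and all lists were chosen with earlier results of these data known. The lists hold 230 genes, of which 187 were tested. Genes were named by a fixed rule: the 6 genes, up to 3 called genes by largest change per list and comparison (the largest change where none was called), and the 3 genes nearest in r to each of the 6. Errfi1, Bcl6, Map3k6, Per1 and the marker genes of doubted arrays were named after their values were seen. Some genes that the rule allows are not printed. Replicate letters did not pair the arrays: over 18 groups and 153 pairs of groups, same-letter deviations correlated at -0.26 to 0.25 (median 0.01), with 24 pairs over 0.1. Other settings tried were no further background correction, an offset of 16, scaling to 1 median, other filters, averaged probes, other probes, other controls, day 19 LuRKO arrays alone, a replicate block and leaving out each array. The 6 injected controls, leaving out 3 doubted arrays (genes and lists alike) and the genotype by age test were added after the data were seen. Promoter windows come from RefSeq (GRCm38.p6).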

Additional observations from a re-analysis of the deposited data

Results flagged for a closer look

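The difference between LuRKO and wild type changed with age for 4 of the 6 genes, by limma's F test of a genotype by age interaction over 5 ages. The adjusted p was 1.5e-06 for Tsc22d3, 1.9e-05 for Sgk1, 0.00021 for Klf9 and 0.0045 for Fkbp5. It was 0.29 for Pdk4 and 0.86 for Dusp1. Of all genes 52% were called by the same test, so a call is common here. For Tsc22d3 the call rests on its brightest probe. A dimmer one, ILMN_2648224, above background on 38 of 38 arrays, had similar genotype differences at the first and last age. Its means in LuRKO and wild type were 7.55 and 7.26 at day 3, and 7.34 and 7.04 at day 27. The interaction was not tested on that probe. The LuRKO minus wild-type difference was larger at day 27 than at day 13 by 1.22 (log2) for Tsc22d3, 1.51 for Sgk1, 0.85 for Fkbp5 and 0.49 for Klf9. Each of these rests on the 1 LuRKO array of day 27. With the 3 doubted arrays left out the adjusted p was 8.9e-07, 1.7e-05, 5.1e-05 and 0.0052 for the same 4 genes, beside 53.3% of all genes, and these day 13 to day 27 changes were 1.36, 1.56, 0.90 and 0.56.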

How the results depend on the processing

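Of 2056 values of the 6 genes under settings other than leaving out an array, 1958 kept their direction and side of the threshold, 36 lost a call, 19 gained one, 41 changed sign without being called and 2 reversed. The reversed ones were both Tsc22d3 on another probe: 48 h against 24 h was 0.089 on ILMN_2701664, which was not above background on any array of either time and so does not test the call, and LuRKO against wild type at day 3 was 0.30 on ILMN_2648224. Leaving out 1 array gave 1056 values, of which 911 kept call and direction, 56 lost a call, 16 gained one and 73 changed sign without being called. The count of calls ranged from 11 to 19 of 36 against untreated LuRKO (19 with all arrays; 11 without untreated replicate B), 11 to 14 against the 8 controls (12) and 2 to 9 against vehicle (9; 2 without vehicle replicate B). It ranged from 1 to 2 between neighbouring times (2; 1 without either 48 h array), 0 to 1 for doses including 2.5 mg (1; 0 without vehicle replicate B), 0 to 1 for vehicle against untreated (2), 6 to 7 of 36 for genotype (6) and 10 to 11 of 12 for age (10). With untreated and vehicle arrays together as controls the doses gave 2 calls. Vehicle against untreated gave 0 calls with the 3 doubted arrays left out or with no filter on dim probes, and 1 with an offset of 16. The replicate block gave 12 calls against the 8 controls, 20 against untreated, 9 against vehicle, 3 between neighbouring times, 1 for doses, 2 for vehicle against untreated, 7 for genotype and 10 for age. Where not shown by fewer arrays, the cause was not tested. Dim probes such as Pdk4, near the background threshold of 6.66, understate folds.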
